A study of Mus musculus with 32 samples.

Results

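The size of an odd minus even difference was compared between a Ba/F3 line with a synthetic IL-23 receptor pair and a Ba/F3 line with the natural receptor pair. Ba/F3 is a murine pro-B cell line that in its original form depends on IL-3. The paper kept Ba/F3-gp130 cells in Hyper-IL-6, a fusion of IL-6 and soluble IL-6R. All cells of the study carried human gp130. The Ba/F3-IL-12Rβ1-IL-23R line had in addition received, by retroviral transduction with a pMOWS plasmid, what the labels call the IL23R and IL12Rβ1 variant. The Ba/F3-SyCyR(IL-23/2A) line had received SyCyRGFP:IL-12Rβ1/2A/SyCyRmCherry:IL-23R by the same route. In these synthetic cytokine receptors (SyCyRs) a nanobody against GFP or mCherry stands in place of most of the extracellular part of IL-12Rβ1 or IL-23R, and the transmembrane and intracellular parts are kept. Of 32 arrays in 4 lines, 16 were used, 8 for each of the 2 lines. The sample titles number the arrays of each line 13 to 20, and in each line the 4 arrays with an odd number were set against the 4 with an even number.

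The labels do not say which array was stimulated. For every array they give the same protocol of 3 h in serum-free medium and 1 h with 100 ng/ml of 1 of the ligands GFP-mCherry, HmIL-23 (an IL-23 fusion protein) or 3xGFP (a GFP trimer). The odd and even groups were chosen by measured values, namely the odd-even differences of early genes such as Socs3, Osm and Il10, so the difference within a line is a description and no test of it is given. The comparison between the lines rests on the same arrays, and its calls are also given as a description. The study's methods describe the control as supernatant of CHO-K1 cells and the arrays as independent biological replicates. Each receptor is represented by 1 line that was selected and cultured separately. Receptor, line and ligand therefore cannot be told apart in this comparison.

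IL-23 signals through IL-23R and IL-12Rβ1, which bring the Janus kinases Jak2 and Tyk2 together and activate mainly STAT3. STAT3 enters the nucleus and induces early genes, among them feedback inhibitors of the SOCS family. According to the paper, SOCS3 does not target the IL-23R complex. IL-23 is best known for sustaining IL-17-producing T cells, whereas Ba/F3 cells are used because their growth can be made dependent on an introduced receptor. Of 17 pro-B markers with a probe set, 5 lay above the median of all probe sets (7.05 on the log2 scale) in both lines. They included the B-cell receptor component Cd79a at 10.3, while the pro-B transcription factors Pax5 and Ebf1 lay at 6.51 and 5.76.

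The introduced natural receptors were seen on the arrays, and their odd-even differences were close to 0. Il23r lay between 13.17 and 13.33 in the 8 arrays of the IL-12Rβ1-IL-23R line and between 6.02 and 6.67 in those of the SyCyR(IL-23/2A) line, where Ba/F3-gp130 also lay at 6.41 to 6.78. Il12rb1 lay at 12.34 to 12.69 and at 8.09 to 8.41, beside 7.84 to 8.16 in Ba/F3-gp130. Whether these probe sets cover the parts kept in the synthetic receptors was not checked, and equal receptor amounts were not tested. The difference of the odd minus even differences, SyCyR(IL-23/2A) minus IL-12Rβ1-IL-23R, was 0.03 for Il23r and 0.09 for Il12rb1 on the log2 scale. Csf2rb, a β-chain gene of the IL-3 receptor, also differed in level. It lay at 6.36 to 7.26 in the natural and at 12.61 to 13.16 in the synthetic receptor line, beside 12.75 to 12.98 in Ba/F3-gp130. The α-chain gene Il3ra lay at 9.59 to 9.88 and at 9.51 to 9.79. Dependence of these lines on IL-3 was not tested.

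Most genes with an odd-even difference had a smaller one in the SyCyR(IL-23/2A) line. In 54 of 19938 genes the mean of both lines' odd minus even differences was at least 1 on the log2 scale in size, and 53 of them were higher in the odd arrays of both lines. The difference was smaller in size in the SyCyR(IL-23/2A) line for 49 of the 54 (90.7%), beside 13191 of all 19938 genes (66.2%). The slope of the line through 0 across the 54 genes, synthetic over natural receptor line, was 0.769. The median ratio was 0.753. Over all genes, most of which had no odd-even difference, the slope was 0.685 and the median ratio 0.501, so neither baseline is 1. Genes are not independent replicates, and the slope has no p. Taken with 1 odd array of the SyCyR(IL-23/2A) line at a time it was 0.758, 0.799, 0.725 and 0.804. With 1 odd array of the IL-12Rβ1-IL-23R line at a time it was 0.720, 0.718, 0.888 and 0.758, in the order 13, 15, 17 and 19. All 8 slopes lay below 1 and above the 0.685 over all genes. They reuse the same even arrays and the other line's means, so they are not separate results. The highest came from array 17 of the natural receptor line. For comparison, the largest odd-even difference of these 54 genes in the parental Ba/F3-gp130 line, which has neither receptor, was 0.258 in size.

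**Figure D1:**
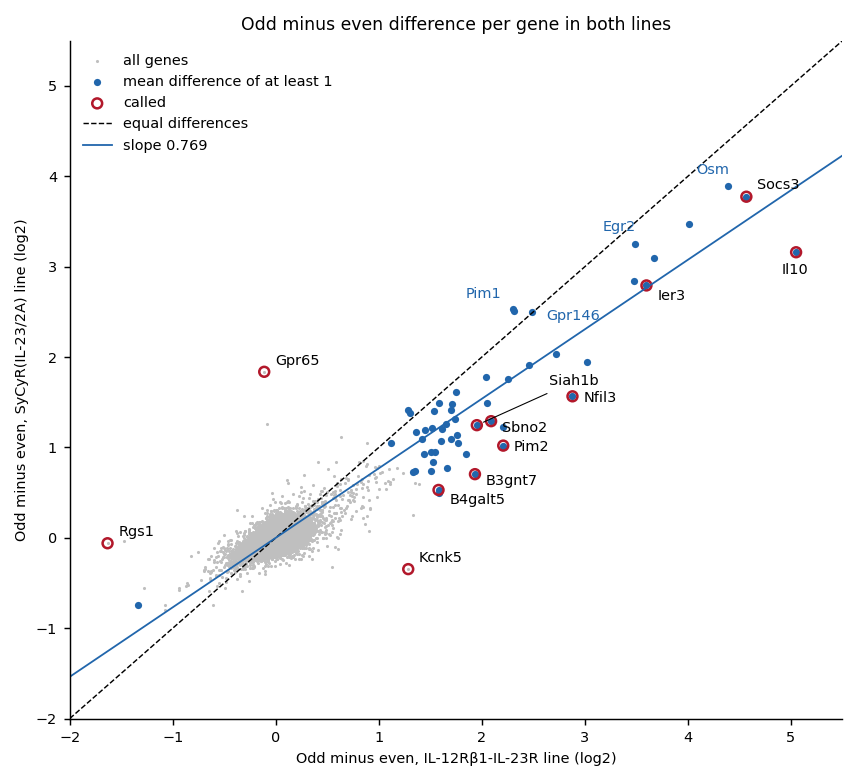
Odd minus even difference (log2) of each gene in the IL-12Rβ1-IL-23R line (x axis) and in the SyCyR(IL-23/2A) line (y axis), each from 4 odd and 4 even arrays. Blue points are the 54 genes with a mean difference of at least 1, red circles the 12 called genes, the dashed line marks equal differences and the blue line the slope of 0.769. Most blue points lie below the dashed line.

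The smaller difference was made up of higher even arrays and lower odd arrays. Over the 54 genes the SyCyR(IL-23/2A) line exceeded the IL-12Rβ1-IL-23R line in the even arrays by a median of 0.228 and lay below it in the odd arrays by a median of -0.269. Averaged over the 53 genes higher in odd arrays, the even arrays lay at 8.48, 8.53, 8.38 and 8.55 in the natural receptor line. They lay at 8.72, 8.68, 8.57 and 8.69 in the synthetic receptor line, above all 4 of the former. The odd arrays lay at 10.8, 10.81, 10.28 and 10.63 in the natural receptor line and at 10.26, 10.32, 10.14 and 10.31 in the synthetic one. There the groups overlapped through array 17 of the IL-12Rβ1-IL-23R line, while the other 3 arrays of that line were higher than all 4 of the SyCyR(IL-23/2A) line. Ba/F3-gp130 lay between 8.38 and 8.61 in all its arrays. The arrays numbered 17 and 18 were the lowest of their group in all 3 lines.

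**Figure D2:**
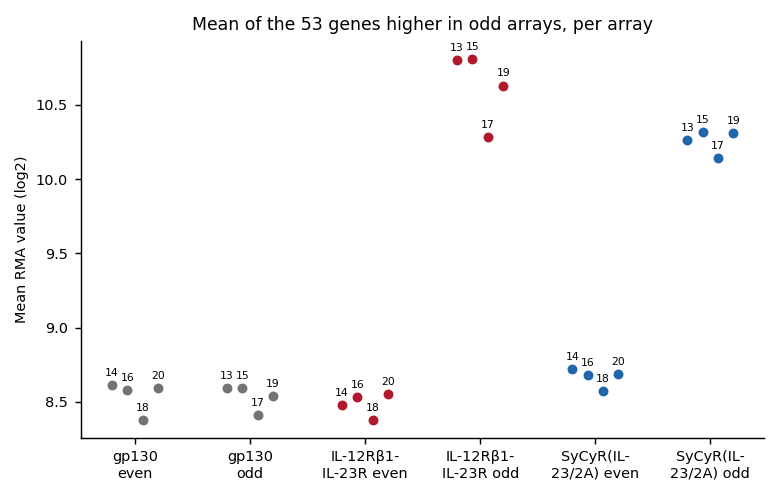
Mean RMA value (log2) of the 53 genes higher in odd arrays, with 1 point per array labelled by its number, for Ba/F3-gp130, IL-12Rβ1-IL-23R and SyCyR(IL-23/2A). The axis does not start at 0. Array 17 of the IL-12Rβ1-IL-23R line lies at 10.28, apart from the other 3 odd arrays of that line.

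By gene, the signed odd minus even difference was called lower in the SyCyR(IL-23/2A) line for 10 of 19938 (0.0502% of genes) and higher for 2 (0.01%). With so few calls, a gene list without a call is no result about its genes. Calls were made in limma at an adjusted p under 0.05 (Benjamini-Hochberg) and a difference of at least 1.5-fold. The genes called lower were Il10, Kcnk5, Nfil3, B3gnt7, Pim2, B4galt5, Ier3, Sbno2, Socs3 and Siah1b. All but Kcnk5 had a smaller positive difference, and in Kcnk5 the sign turned. Those called higher were Gpr65, whose difference was larger, and Rgs1, whose negative difference was smaller in size. Kcnk5, Nfil3, Pim2, Socs3 and Rgs1 kept their calls in all 16 fits with 1 array left out, and the other 7 lost theirs in 1 to 14 of them. By probe set the counts were 11 and 2 of 23410 (0.047% and 0.00854%). The 11 included a probe set shared by Tmigd3 and Adora3. Its differences were 3.87 in the natural and 2.41 in the synthetic receptor line. Without array 17 of the IL-12Rβ1-IL-23R line 63 probe sets were called lower, and without array 17 of the SyCyR(IL-23/2A) line 5. With the array number as a block 17 were called lower and 2 higher. The 95% interval of the difference of differences lay within 1.5-fold either way for 19137 genes (96.0%), most of which had no odd-even difference in either line. Among the 54 genes with a difference, 9 were called smaller, none larger, 7 had an interval within 1.5-fold and 38 were neither. Their median difference of differences was -0.553, beside 0.011 over all genes, of which 45.3% lay below 0. In 6 of the 12 called genes the level over all 8 arrays also differed between the lines, beside 2.72% of all genes. That level is the mean of the odd and even arrays. A difference in the odd arrays alone, as in Il10 and B3gnt7, therefore shifts it too, and the 2 shares are no separate result.

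**Figure D3:**
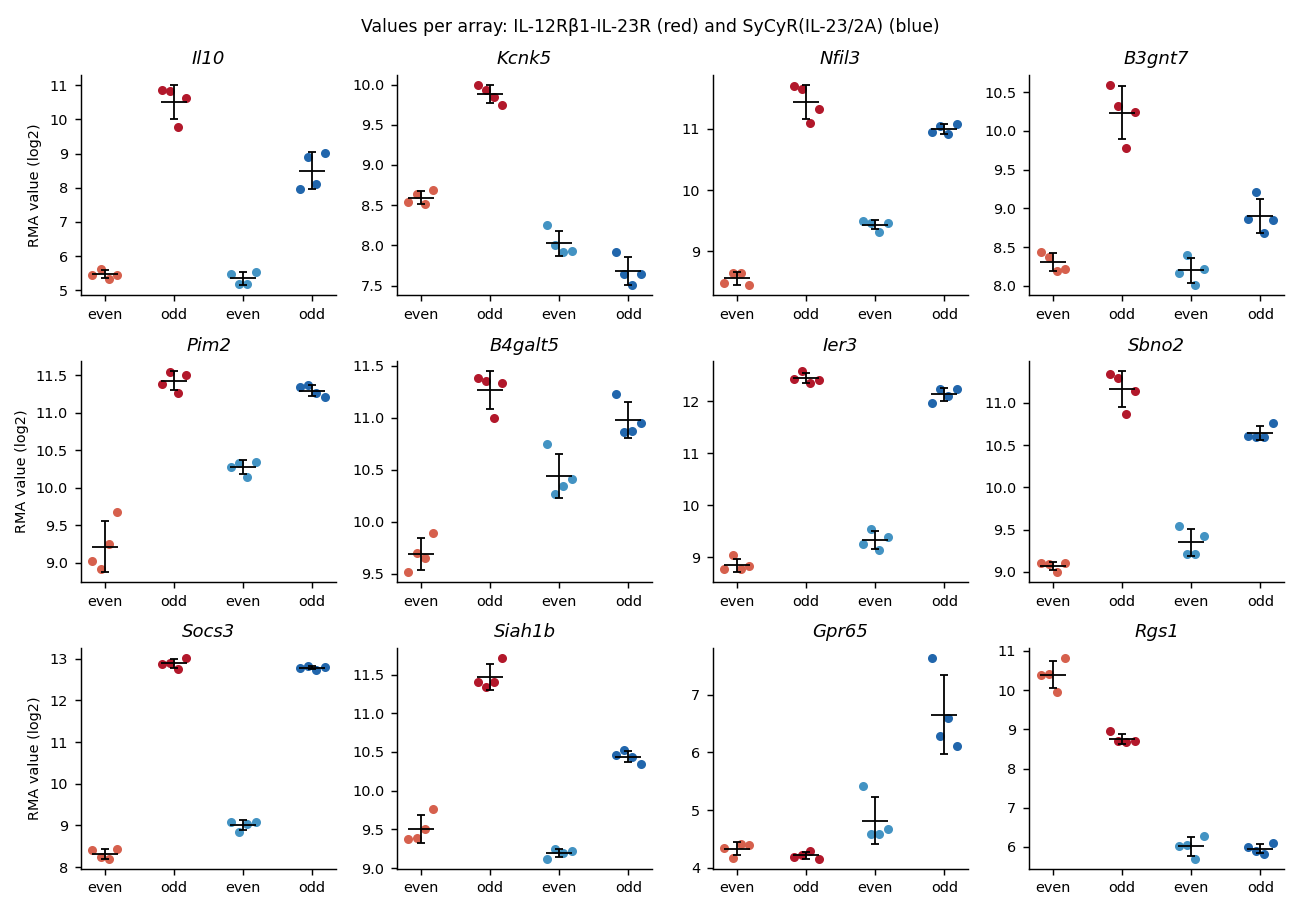
RMA value (log2) in each of the 16 arrays for the 12 called genes, with the even and odd arrays of the IL-12Rβ1-IL-23R line in red and of the SyCyR(IL-23/2A) line in blue. Points are arrays, horizontal bars the means and error bars the SD of 4 arrays, and the axes do not start at 0. Socs3 and Pim2 differ between the lines mainly in the even arrays, Il10 and B3gnt7 mainly in the odd arrays.

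STAT proteins bind palindromes of the form TTCNNNGAA. This motif, which reads alike on both strands, was searched in the promoter windows of RefSeq (GRCm38.p6, 250 bases before to 50 after a start). It occurred in 2 of the 9 genes called lower that had a window (22.2%), in 11 of 42 genes that were higher in odd arrays by at least 1 (26.2%), and in 9.55% of all 27025 genes with a window. These are matches of letters, and binding was not measured. The AP-1 motif TGANTCA, searched in the same way and not overlapping TTCNNNGAA, occurred in 0 of the 9, in 7 of the 42 (16.7%) and in 8.97% of all genes. Windows with the STAT motif are shown for Socs3 and Sbno2, which were called smaller, for Cish, which has the motif at 2 places, and for Gpr146, whose difference was like in both lines. Capitals mark TTCNNNGAA, at base 97 for Socs3, 225 for Sbno2, 251 and 262 for Cish and 132 for Gpr146, counted from the 5′ end of the window. The windows are chr11:117969317-117969616 (minus strand), chr10:80102653-80102952 (minus), chr9:107296409-107296708 (plus) and chr5:139380389-139380688 (plus). Sbno2 and Gpr146 have further starts with windows of their own, of which 1 for Sbno2 also holds the motif.
Socs3: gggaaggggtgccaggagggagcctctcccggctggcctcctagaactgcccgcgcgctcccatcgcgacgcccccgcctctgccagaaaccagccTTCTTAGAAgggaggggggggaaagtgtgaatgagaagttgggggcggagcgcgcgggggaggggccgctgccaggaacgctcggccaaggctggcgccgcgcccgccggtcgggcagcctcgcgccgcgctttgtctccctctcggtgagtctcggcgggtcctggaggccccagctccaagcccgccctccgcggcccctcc
Sbno2: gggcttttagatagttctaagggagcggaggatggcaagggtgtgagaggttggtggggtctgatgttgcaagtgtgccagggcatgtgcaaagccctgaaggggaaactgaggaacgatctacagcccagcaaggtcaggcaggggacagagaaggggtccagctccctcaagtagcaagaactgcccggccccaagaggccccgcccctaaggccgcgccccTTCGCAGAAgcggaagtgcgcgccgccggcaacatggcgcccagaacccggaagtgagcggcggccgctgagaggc
Cish: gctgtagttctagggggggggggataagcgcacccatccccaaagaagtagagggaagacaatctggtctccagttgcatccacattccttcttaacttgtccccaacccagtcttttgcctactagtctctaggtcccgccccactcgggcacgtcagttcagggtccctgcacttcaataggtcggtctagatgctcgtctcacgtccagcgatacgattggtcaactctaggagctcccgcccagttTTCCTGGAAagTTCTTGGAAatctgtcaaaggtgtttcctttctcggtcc
Gpr146: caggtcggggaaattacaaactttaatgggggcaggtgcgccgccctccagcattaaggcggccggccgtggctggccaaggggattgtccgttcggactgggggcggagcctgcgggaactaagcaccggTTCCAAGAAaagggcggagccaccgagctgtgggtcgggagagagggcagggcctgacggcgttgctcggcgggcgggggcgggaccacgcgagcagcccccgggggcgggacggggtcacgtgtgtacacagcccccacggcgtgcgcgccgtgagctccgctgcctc

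The SOCS family codes for feedback inhibitors of JAK-STAT receptors. Of 8 members 1 was called smaller, Socs3, and none larger, beside 0.0502% and 0.01% of all genes. The intervals of 6 (75.0%) lay within 1.5-fold, beside 96.0% of all genes. Socs3, which blocks Janus kinases bound to gp130, lay at 8.40, 8.24, 8.20 and 8.44 in the even arrays of the IL-12Rβ1-IL-23R line and at 12.88, 12.89, 12.76 and 13.01 in its odd arrays. In the SyCyR(IL-23/2A) line it lay at 9.07, 8.83, 9.04 and 9.09 in the even and at 12.77, 12.82, 12.73 and 12.81 in the odd arrays. The odd arrays of the lines overlapped and the even arrays did not. The difference was 4.57 in the natural and 3.77 in the synthetic receptor line, a difference of differences of -0.79 ± 0.10 (SE; 4 arrays per group), or 1.73-fold. The even arrays of Ba/F3-gp130, at 8.45 to 8.66, lay between those of the derived lines. A dimmer Socs3 probe set had differences of 2.90 and 2.37, and its difference of -0.53 did not pass.

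Socs1, a direct inhibitor of Jak kinases, had a difference of 1.51 in the natural and 1.21 in the synthetic receptor line. Its interval, -0.48 to -0.12, excluded 0 and lay within 1.5-fold. Cish, the SOCS family member best known downstream of STAT5, had differences of 2.72 and 2.03. Its difference of differences of -0.69 (95% interval -1.13 to -0.25) did not pass. Its even arrays lay at 7.18 to 7.47 in the natural and at 7.52 to 8.01 in the synthetic receptor line, while the odd arrays overlapped.

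Of 11 measured cytokine genes of the IL-6 and IL-10 families 1 was called smaller, Il10, and none larger. Over all genes 0.0502% were called lower and 0.01% higher. The median difference of differences of the 11 was -0.082, beside 0.011 over all genes. The 4 members with a mean difference of at least 1 were all smaller in size in the SyCyR(IL-23/2A) line. So were 49 of the 54 genes with such a difference (90.7%), which makes this no result about these families. Il10, an anti-inflammatory cytokine induced by STAT3, lay at 5.45, 5.63, 5.34 and 5.45 in the even and at 10.85, 10.82, 9.78 and 10.62 in the odd arrays of the IL-12Rβ1-IL-23R line. In the SyCyR(IL-23/2A) line it lay at 5.48, 5.19, 5.17 and 5.54 in the even and at 7.96, 8.91, 8.12 and 9.02 in the odd arrays. The odd arrays of the lines did not overlap, and the even arrays did. The differences were 5.05 and 3.16, and their difference was -1.89 ± 0.32. All even arrays lay below the median of all probe sets, so that a level above background was not shown there. The odd arrays alone differed by -2.01.

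The other 3 moving cytokine genes differed less and did not pass. Osm, which codes for oncostatin M, had differences of 4.39 in the natural and 3.89 in the synthetic receptor line. Its even arrays lay at 7.99 to 8.24 and at 8.36 to 8.77 without overlap, and its odd arrays at 12.19 to 12.72 and at 12.31 to 12.62. Lif, for leukemia inhibitory factor, had 3.48 and 2.84, again with the even arrays apart, at 6.41 to 6.79 and 7.01 to 7.40. Il6 had 3.02 and 1.95, and the interval of its difference of -1.08 ran from -1.72 to -0.43. In these 3 genes the SyCyR(IL-23/2A) line was higher in the even arrays by 0.45, 0.58 and 0.72 and nearly level with the other line or lower in the odd arrays, at -0.05, -0.06 and -0.35.

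Of the 3 Pim kinases, serine/threonine kinases that promote survival and growth, Pim2 was called smaller, where 0.0502% of all genes were called lower. Pim2 lay at 9.02, 8.92, 9.25 and 9.68 in the even and at 11.39, 11.55, 11.27 and 11.50 in the odd arrays of the IL-12Rβ1-IL-23R line. It lay at 10.28, 10.33, 10.14 and 10.35 in the even and at 11.35, 11.37, 11.26 and 11.21 in the odd arrays of the SyCyR(IL-23/2A) line. The lines thus met in the odd arrays and were apart in the even arrays, where Ba/F3-gp130 lay at 9.38 to 9.89. The differences were 2.21 and 1.02, and their difference was -1.19 ± 0.17. Pim1 had 2.30 and 2.53, and the interval of +0.23, from -0.32 to 0.78, reached beyond 1.5-fold on the upper side. Pim1 and Pim2 were not tested against each other.

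Of 36 STAT3 targets 4 were called smaller (Socs3, Pim2, Il10 and Nfil3) and none larger, 18 had an interval within 1.5-fold, and the median was -0.244. Of the 17 with a mean difference of at least 1, 15 were smaller in size in the SyCyR(IL-23/2A) line. Nfil3, a basic leucine zipper repressor of lymphoid cells, lay at 8.49, 8.65, 8.65 and 8.45 in the even and at 11.69, 11.65, 11.10 and 11.32 in the odd arrays of the natural receptor line. In the synthetic receptor line it lay at 9.49, 9.46, 9.32 and 9.46 and at 10.95, 11.05, 10.91 and 11.08. Even arrays were higher and odd arrays lower there, both without overlap. The differences were 2.88 and 1.57, and their difference was -1.31 ± 0.15, or 2.49-fold.

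Bcl6, a repressor of the germinal centre program, had differences of 1.67 and 0.77. Its difference of -0.89 (-1.30 to -0.49) did not pass. Its even arrays lay at 6.72 to 7.20 and 7.45 to 7.91, and Ba/F3-gp130 at 7.87 to 8.08. Il4ra, the IL-4 receptor α-chain gene, had 2.46 and 1.91, with -0.55 (-0.79 to -0.31). Irf1, an interferon-regulatory factor, had 1.76 and 1.13, and Junb, an AP-1 subunit, 2.25 and 1.76. Neither passed, and their intervals reached from -1.16 to -0.10 and from -0.92 to -0.07. A dimmer Irf1 probe set had differences of 0.72 and 0.50. The interval of its difference of -0.23, from -0.465 to 0.007, included 0 and lay within 1.5-fold. Cebpd, an acute-phase transcription factor, was higher in the SyCyR(IL-23/2A) line in even and odd arrays alike, by 0.55 and 0.69, and its differences of 1.28 and 1.42 were like within 1.5-fold. Cdkn2d, an inhibitor of Cdk4 and Cdk6, had 2.04 and 1.77. Its interval, -0.48 to -0.06, excluded 0 and also lay within 1.5-fold.

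**Figure D4:**
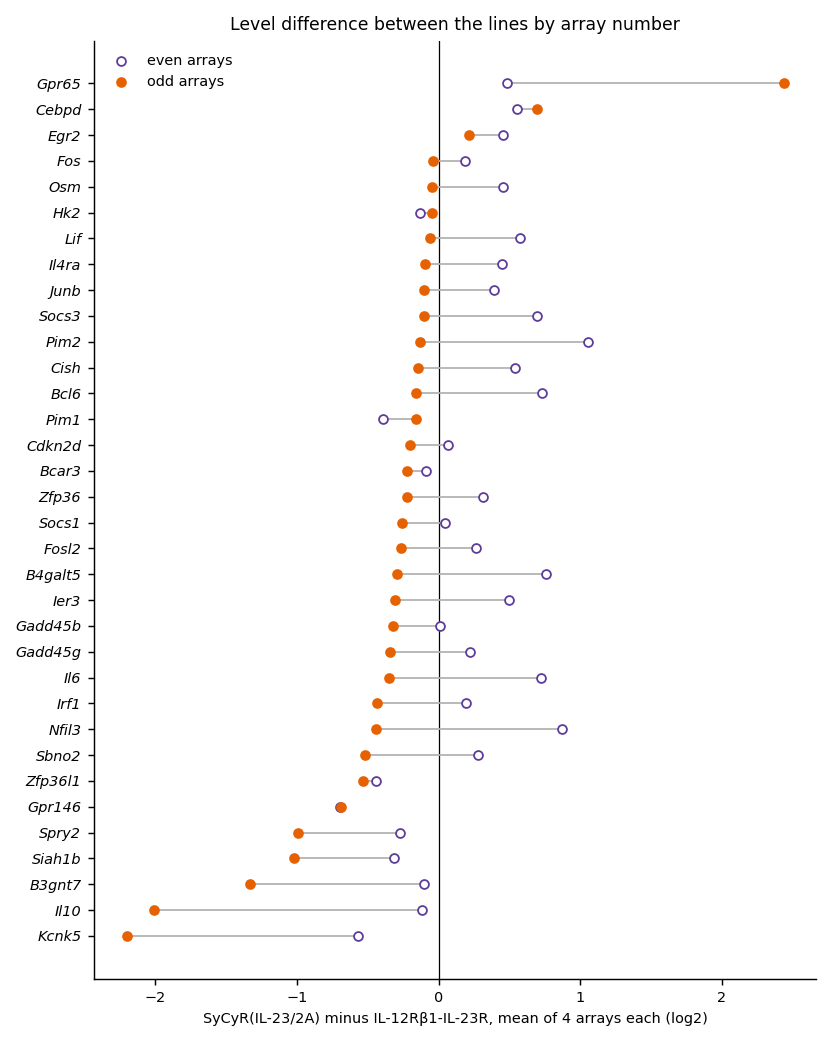
SyCyR(IL-23/2A) minus IL-12Rβ1-IL-23R difference (log2) of each named gene in the even arrays (open circles) and in the odd arrays (filled circles), each a difference of 2 means of 4 arrays. Rgs1 (-4.37 in even, -2.80 in odd arrays) and the receptor genes are not drawn. Socs3, Pim2 and Bcl6 are higher in the even arrays, whereas Il10, B3gnt7, Siah1b and Spry2 are lower mainly in the odd arrays.

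Of 25 immediate early genes downstream of the ERK kinases Ier3 was called smaller, where 0.0502% of all genes were called lower. The intervals of 15 (60.0%) lay within 1.5-fold, beside 96.0% of all genes, and the median was -0.129, beside 0.011. Ier3, a regulator of apoptosis and ERK activity, lay at 8.76, 9.03, 8.76 and 8.82 in the even and at 12.42, 12.57, 12.35 and 12.41 in the odd arrays of the natural receptor line. It lay at 9.26, 9.54, 9.14 and 9.39 and at 11.96, 12.23, 12.09 and 12.23 in the synthetic receptor line, so that neither the even nor the odd arrays overlapped. The differences were 3.60 and 2.79, and their difference was -0.81 ± 0.13. Egr2, a zinc finger transcription factor, had 3.49 and 3.25, with a wide interval of -1.0 to 0.52. Its odd arrays in the IL-12Rβ1-IL-23R line lay at 11.09, 11.45, 9.60 and 11.16, of which the third, array 17, stood apart. Fos had 1.71 and 1.48 and Fosl2 1.60 and 1.07, and neither passed.

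Of 13 ERK feedback genes none was called. An interval within 1.5-fold was found for 9 (69.2%), beside 96.0% of all genes, and the median was -0.075, beside 0.011. Spry2, a Sprouty inhibitor of Ras-ERK signaling, had differences of 1.77 and 1.05. Its difference of -0.72 ± 0.14 did not pass without a block and passed with the array number as a block. The odd arrays lay at 10.04 to 10.55 in the natural and at 9.16 to 9.42 in the synthetic receptor line, and the even arrays were also lower, at 8.10 to 8.36 beside 8.40 to 8.58.

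Zfp36, which codes for tristetraprolin, a protein that triggers decay of cytokine mRNAs, had differences of 4.01 and 3.47, and its relative Zfp36l1 had 1.59 and 1.49. None of 4 members of this family was called, and Zfp36l1 was within 1.5-fold. Of the stress-inducible Gadd45 genes, Gadd45g had 3.67 and 3.10 and Gadd45b 1.42 and 1.09. None of the 3 was called, and their median was -0.332, beside 0.011 over all genes.

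Genes that differed mainly in the odd arrays code for proteins of several kinds. Kcnk5, a pore-forming subunit of a 2-pore potassium channel, lay at 8.54, 8.64, 8.51 and 8.69 in the even and at 10.00, 9.93, 9.85 and 9.75 in the odd arrays of the IL-12Rβ1-IL-23R line. In the SyCyR(IL-23/2A) line it lay at 8.25, 8.01, 7.92 and 7.93 in the even and at 7.92, 7.65, 7.51 and 7.64 in the odd arrays. Its odd arrays were thus all above the even ones in the natural receptor line and at or below them in the synthetic one. The differences were 1.29 and -0.35, and their difference was -1.63 ± 0.13. Ba/F3-gp130 lay at 7.94 to 8.36 in all its arrays.

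The glycosyltransferase genes B3gnt7 and B4galt5 were both called smaller, by different arrays. B3gnt7, which adds N-acetylglucosamine in the synthesis of keratan sulfate chains, lay at 8.19 to 8.43 and at 8.01 to 8.40 in the even arrays of the natural and the synthetic receptor line. In the odd arrays it lay at 10.60, 10.32, 9.78 and 10.24 and at 8.86, 9.21, 8.68 and 8.85. Only its odd arrays were apart, and the difference of differences was -1.23 ± 0.20. B4galt5, a galactosyltransferase of glycolipid synthesis, lay at 9.52, 9.70, 9.65 and 9.89 and at 10.75, 10.27, 10.35 and 10.41 in the even arrays. Its odd arrays lay at 11.00 to 11.38 and at 10.86 to 11.23. Here the even arrays were apart and the odd arrays overlapped, and the difference was -1.05 ± 0.16. Even and odd arrays of Ba/F3-gp130 lay at 10.14 to 10.33, close to the even arrays of the SyCyR(IL-23/2A) line.

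Sbno2, a transcriptional coregulator downstream of IL-10 and STAT3, had differences of 2.09 and 1.29. Its even arrays lay at 9.0 to 9.10 and 9.21 to 9.54 and its odd arrays at 10.87 to 11.34 and 10.59 to 10.76, in each case without overlap, and the difference was -0.80 ± 0.13. Siah1b, an E3 ubiquitin ligase, had 1.95 and 1.25. Its odd arrays lay at 11.34 to 11.71 in the natural and at 10.35 to 10.52 in the synthetic receptor line, and the difference of -0.71 ± 0.13 did not pass with the array number as a block.

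In the 2 genes called higher the odd and even arrays were apart in 1 line each. Gpr65, a proton-sensing G protein-coupled receptor, lay at 4.18 to 4.41 in the even and at 4.16 to 4.30 in the odd arrays of the IL-12Rβ1-IL-23R line. In the SyCyR(IL-23/2A) line it lay at 5.42, 4.58, 4.59 and 4.67 in the even and at 7.63, 6.28, 6.59 and 6.11 in the odd arrays. The odd arrays of that line stood above all others, although 3 of the 4 were still below the median of all probe sets. All arrays of the IL-12Rβ1-IL-23R line lay far below that median and within the range of Ba/F3-gp130, 4.11 to 4.49, so that no level above background was shown there. The measured differences were -0.11 and 1.84, and their difference was 1.95 ± 0.33. The call was lost in 11 of the 16 fits with 1 array left out, and also with all probe sets tested, arrays centred, quantile normalization or a trended robust variance.

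Rgs1, a regulator that ends G protein signaling, lay at 10.39, 10.40, 9.96 and 10.81 in the even and at 8.96, 8.69, 8.67 and 8.70 in the odd arrays of the natural receptor line. In the synthetic receptor line it lay at 5.70 to 6.27 and at 5.83 to 6.09, and in Ba/F3-gp130 at 5.33 to 5.99. The differences were -1.63 and -0.06, and their difference was 1.57 ± 0.20. Rgs1 was thus lower in the odd arrays in the only line of the 3 in which it lay above the median of all probe sets. In the SyCyR(IL-23/2A) line a level above background was not shown for it. Rgs2, of the same family, was the 1 gene of the 54 that was lower in the odd arrays, by -1.34 and -0.74. It was named after its values had been seen.

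A like difference in both lines was found for 7 of the 54 genes, each with its interval within 1.5-fold. Like here does not mean equal, since the intervals of Socs1 and Cdkn2d excluded 0. Gpr146, an orphan G protein-coupled receptor, had 2.49 in both. Its even arrays lay at 8.74, 8.41, 7.82 and 8.55 and at 7.76, 7.92, 7.43 and 7.63, and its odd arrays at 11.08, 11.14, 10.51 and 10.74 and at 10.39, 10.20, 10.01 and 10.12. It was lower in the SyCyR(IL-23/2A) line in both, by -0.70 and -0.69, and the interval of the difference of 0.01 ran from -0.49 to 0.51. Bcar3, an adaptor of Src family signaling, had 1.75 and 1.61. Hk2, the hexokinase that opens glycolysis, had 1.30 and 1.38, and its even and odd arrays overlapped between the lines. Cdkn2d, Zfp36l1, Socs1 and Cebpd, given above, were the other 4. The 5 genes with a larger size in the SyCyR(IL-23/2A) line were Gpr146, Pim1, Cebpd, Hk2 and Tnfsf9, none of them called. Tnfsf9, for the 4-1BB ligand, was named after its values had been seen and had 2.31 and 2.51.

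**Figure D5:**
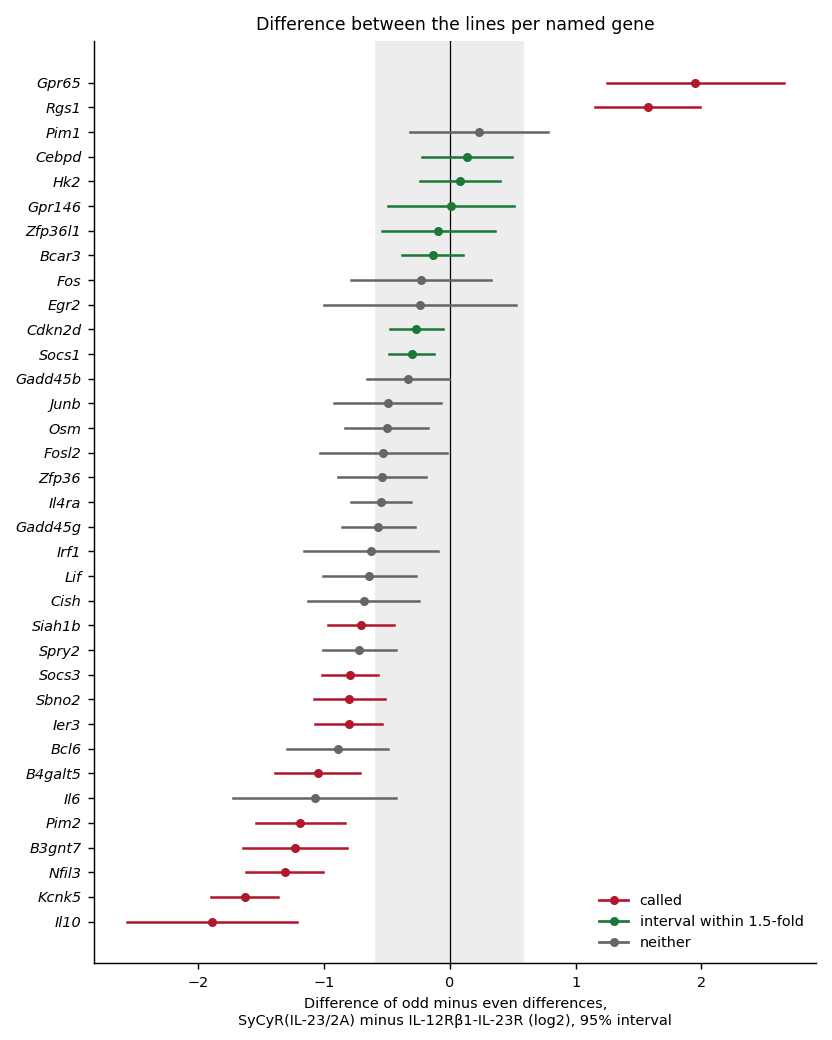
Difference of the odd minus even differences (log2), SyCyR(IL-23/2A) minus IL-12Rβ1-IL-23R, with its 95% interval from limma for each named gene except the receptor genes. Red marks the 12 called genes, green the 7 with an interval inside the grey band of 1.5-fold, and grey those that are neither. Gpr65 and Rgs1 lie on the right, Il10 and Kcnk5 at the far left.

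No member was called in the lists of NF-κB response (16 measured), interferon response (16), JAK-STAT components (30), cell cycle (18), FoxO-linked (19), amino acid response (17), ribosome biogenesis (22), Th17 effector (11) and reference genes (10). Over all genes only 0.0502% were called lower and 0.01% higher, so this absence is no result about the lists. The medians of the lists lay between -0.092 for ribosome biogenesis and 0.055 for FoxO-linked genes. Bcl6, Irf1, Il4ra, Cdkn2d and Batf belong to these lists as well as to the STAT3 targets. A few further members lay away from the median and did not pass. Tnfaip3, for the NF-κB inhibitor A20, had 0.55 and -0.32, with odd arrays at 7.78 to 8.78 in the natural and at 7.46 to 7.76 in the synthetic receptor line. Batf, an AP-1 factor of T helper cells, had 0.78 and 0.30. Ddit4, an mTORC1 inhibitor induced by stress, was lower in odd arrays, by -1.28 and -0.56.

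Markers of pro-B cells (17 measured), mast cells and basophils (11) and granulocytes and macrophages (15) also had no called member. With 0.0502% of all genes called lower and 0.01% higher, this is no result about the markers. The medians of these lists were 0.016, 0.068 and -0.053. The mean level of the granulocyte and macrophage list differed between the lines, at 6.35 to 6.66 over the arrays of the natural and 6.87 to 7.33 over those of the synthetic receptor line. The mast cell and basophil list also lay higher in the synthetic receptor line, with overlap, at 7.10 to 7.42 beside 6.92 to 7.15. The pro-B list lay at 6.56 to 6.72 in the natural and at 6.57 to 6.71 in the synthetic receptor line. Of the 15 granulocyte and macrophage markers 4 lay above the median of all probe sets in the natural receptor line and 7 in the synthetic one. The protease gene Prtn3 lay at 11.33 to 11.78 and at 11.77 to 12.01, and the myeloperoxidase gene Mpo at 6.34 to 7.70 and at 8.10 to 10.26. Ctsg lay at 5.40 to 6.12 and at 7.07 to 7.92, and Clec5a at 4.77 to 5.47 and at 6.30 to 7.86. Ly6g, S100a8, Lyz2 and Cd14 lay below that median, at 4.64 to 5.76 in the mean of both lines. The part of the granulocyte and macrophage list in the differences between the lines was not tested. In this list Cxcr2, a chemokine receptor of neutrophils, lay at 7.94, 8.52, 6.72 and 7.58 in the even and at 7.98, 8.37, 6.89 and 7.19 in the odd arrays of the IL-12Rβ1-IL-23R line. It lay at 9.76, 10.08, 9.26 and 9.85 in the even and at 10.99, 11.17, 10.64 and 11.21 in the odd arrays of the SyCyR(IL-23/2A) line. Each odd array of the synthetic receptor line was above all its even arrays, whereas in the natural receptor line the groups overlapped. The differences were -0.09 and 1.26, and the difference of 1.35 (0.39 to 2.31) did not pass. With neighbouring numbers within a line as a block it passed.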

How the data were processed

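Cells were profiled on Affymetrix Mouse Gene ST arrays. The authors made the values by RMA with sketch-quantile normalization in Expression Console (version not given in the sources). The deposited values are on the log2 scale and were used as they are. Of 35556 probe sets 21789 had 1 symbol in the platform annotation, 1621 several and 12146 none. Array medians ran from 6.95 to 7.18, and the lowest correlation within a group was 0.9883. The number of arrays limits the precision.

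limma 3.58.1 (R 4.3.3, lmFit and eBayes) fitted 4 groups of 4 arrays to 23410 probe sets with a symbol. The contrast was odd minus even in SyCyR(IL-23/2A) minus odd minus even in IL-12Rβ1-IL-23R, and calls needed 1.5-fold and an adjusted p under 0.05 (Benjamini-Hochberg). The adjusted p values describe and support nothing, since the split was chosen on these arrays. A gene was represented by its brightest probe set with 1 symbol (19938 genes). The fit was tested on simulated data. The slope is the line through 0 with least squared perpendicular distance.

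Array numbers recur in both lines. The correlations of same-numbered arrays' deviations from their group means were 0.115 to 0.471 (other numbers, median -0.061), so same-numbered arrays varied together. No label states such a pairing. The fit reported has no block, and the array number as a block was an alternative.

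Named were the members of 8 lists (STAT3 targets, cytokines, SOCS, Pim, Zfp36, Gadd45 and 2 ERK lists) with a mean difference of at least 1 or a call, all called genes, up to 10 genes like within 1.5-fold with the largest means, the receptor genes, and members of the other 12 lists as examples. Members, lists and rules were chosen with earlier results of these data known. Python 3.11.15, pandas 2.3.3 and matplotlib 3.10.9 were used for the rest. Alternatives were other scalings and filters, all 32 arrays in the fit, blocks, trended variance and arrays left out.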

Additional observations from a re-analysis of the deposited data

Results flagged for a closer look

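The difference of differences was called for 12 genes and 1 probe set shared by Tmigd3 and Adora3, a description, since the odd and even groups were chosen on these arrays. The values were -1.89 for Il10, -1.63 for Kcnk5, -1.31 for Nfil3, -1.23 for B3gnt7, -1.19 for Pim2, -1.05 for B4galt5, -0.81 for Ier3, -0.80 for Sbno2, -0.79 for Socs3 and -0.71 for Siah1b. They were 1.95 for Gpr65 and 1.57 for Rgs1, and -1.46 for the shared probe set.

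A single array lay far from the other 3 of its group in 10 of 152 groups of the named genes, where chance alone gives about 1 in 20. In the IL-12Rβ1-IL-23R line these were B4galt5 in array 17 (11.00), Cish in array 18 (7.47), Sbno2 in array 18 (9.0), Rgs1 in array 13 (8.96) and Il23r in array 19 (13.33). In the SyCyR(IL-23/2A) line they were Socs1 in array 18 (7.50), Il4ra in array 15 (11.89), Fosl2 in array 17 (10.17), Sbno2 in array 19 (10.76) and Gpr65 in array 14 (5.42).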

How the results depend on the processing

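No called difference of a named gene changed sign under the alternatives run. Values near 0 that were not called did, with 1 array left out at -0.11 to 0.20 for Gpr146, -0.05 to 0.15 for Il23r and -0.23 to 0.03 for Zfp36l1. Of probe sets with a signed difference called lower and higher in the SyCyR(IL-23/2A) line (11 and 2), 5 and 1 were left when all probe sets were tested. Without dim probe sets 1 was called higher, with arrays centred on their medians 1, with quantile normalization 1, and with a trended robust variance 1. Gpr65 lost its call in the last 3 of these and with all probe sets. The fit of all 32 arrays called 22 lower. The block on the array number called 17 lower, lost Siah1b and gained Spry2, and changed no other call of a named gene. The block on neighbouring numbers called 21 lower and 5 higher, and an unadjusted p of at most 0.01, the limit in the study's methods, called 65 and 8. Without the numbers 17 and 18 in both lines 43 were lower and 1 higher. Most probe sets gained there were repeats of Chd7, which has 30 probe sets, or were shared by the same Pramel genes. Many of those gained at the unadjusted p were too, so these counts exceed the number of genes. Leaving out 1 array at a time gave 5 to 63 lower and 1 to 2 higher, 63 without array 17 of the IL-12Rβ1-IL-23R line and 5 without array 17 of the SyCyR(IL-23/2A) line. The cause was not tested. Kcnk5, Nfil3, Pim2, Socs3 and Rgs1 kept their calls in all 16 of these fits. B4galt5 lost it in 1, Ier3 in 6, B3gnt7 in 7, Gpr65 in 11, Il10 and Sbno2 in 12 and Siah1b in 14.

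The slope of 0.769 was 0.814 for the 16 genes with a mean difference of at least 2 and 0.683 for the 38 genes between 1 and 2. It was 0.756 with a limit of 0.58 and 0.729 to 0.790 with 1 array left out. The share of genes with a smaller size in the SyCyR(IL-23/2A) line, recomputed after seeing the data, was 89.5% without 17 and 18 and 87.0% to 94.4% with 1 array left out. With 4 arrays a group most single genes of the 54 could be called neither different nor alike.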
